A study of Mus musculus with 6 samples.

Results

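Expression of 8 genes of gluconeogenesis and hepatic glucose export was followed in the livers of mice lacking the coactivator SRC-2 and of wild-type mice: G6pc, Slc37a4, Slc2a2, Pck1, Pck2, Fbp1, Pcx and Ppargc1a. They were picked by name, as all probe sets whose platform symbol is exactly 1 of these 8, which gave 19 probe sets of the 45101 on the array and 8 of the 18194 genes with a probe set of their own. The SRC-2 null livers (SRC-2-/-, 3 arrays) and the wild-type livers (3 arrays) came from female mice on a C57 background, ovariectomized at 6 weeks of age and killed 2 weeks later by cervical dislocation under Avertin anaesthesia. All animals therefore lacked ovarian hormones and had received the same anaesthetic. The labels give neither the construct of the null allele, nor the cell types it covers, nor feeding state or hour of death. Values are log2 expression from short oligonucleotide arrays, and the comparison asks which hepatic transcripts of glucose output differ when SRC-2, the product of Ncoa2, is missing.

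Gluconeogenesis builds glucose from lactate, glycerol and amino acids, and in fasting it is a main source of blood glucose. Pyruvate carboxylase (Pcx) and the phosphoenolpyruvate carboxykinases (Pck1 in the cytosol, Pck2 in mitochondria) carry carbon past pyruvate kinase, and fructose bisphosphatase (Fbp1) carries it past phosphofructokinase. The last step takes place at the endoplasmic reticulum, where the transporter encoded by Slc37a4 brings glucose-6-phosphate to the catalytic subunit encoded by G6pc, and the glucose can leave the hepatocyte through GLUT2, the product of Slc2a2. Ppargc1a encodes the coactivator PGC-1 alpha, which is induced in fasted liver and raises transcription of gluconeogenic genes. Inherited loss of G6pc or of Slc37a4 in people causes glycogen storage disease with low blood glucose in fasting.

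The transcripts of the enzyme that releases glucose and of the transporter that exports it were lower in SRC-2 null liver. G6pc fell 1.64-fold and Slc2a2 fell 1.40-fold, while Slc37a4, Pck1, Pck2, Fbp1, Pcx and Ppargc1a did not pass the test. All 8 genes lay above the filter on dim genes, a mean log2 value of 4.21 over the 6 arrays. A gene was called at an adjusted p under 0.05 in limma with Benjamini-Hochberg adjustment over all 11895 genes tested. Of the 8 genes 2 were called lower and none was called higher, where 4.67% of all tested genes were called, 3.13% lower and 1.55% higher (184 genes, or 307 with the replicate number as a block). The median log2 fold change was 0.016 over the 8 genes and 0.0026 over all genes tested.

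**Figure D1:**
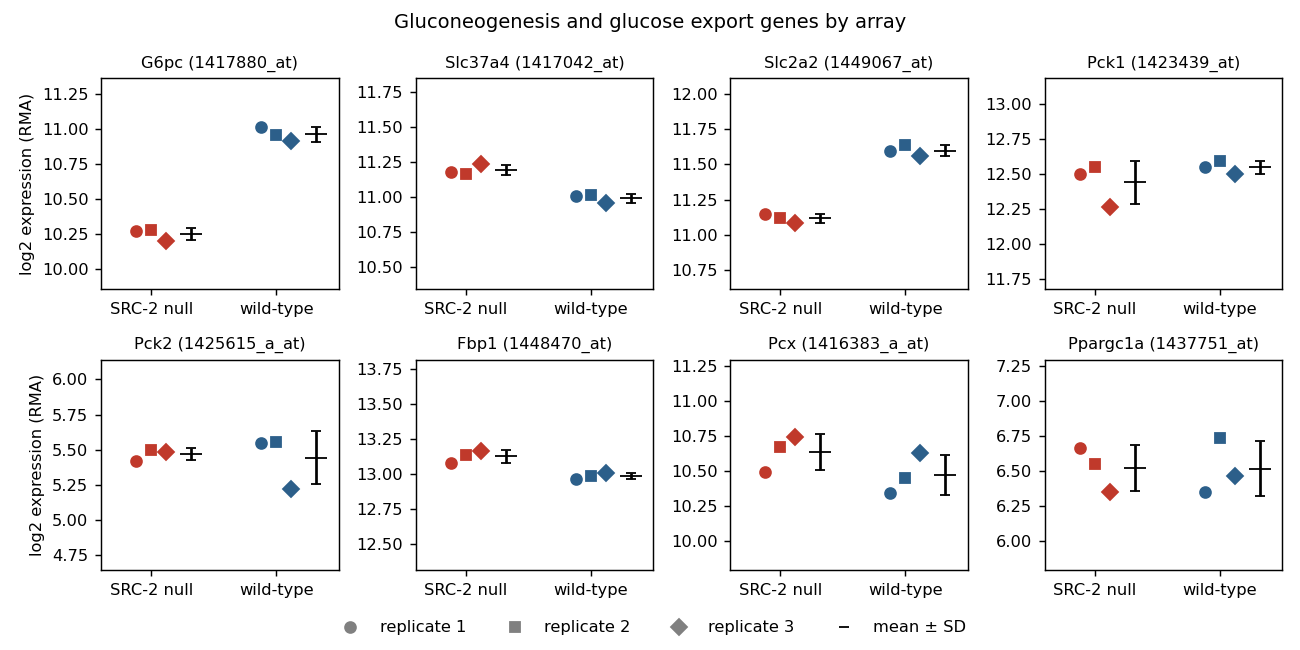
Log2 expression of the brightest probe set of each gene, by array (3 SRC-2 null in red, 3 wild-type in blue), with the mean and SD of each genotype, each panel spanning the same range of 1.5 log2 units. The genotypes are well apart for G6pc and Slc2a2, lie close but do not overlap for Slc37a4 and Fbp1, and overlap for the other 4 genes.

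The targeted gene was checked first. At its brightest probe set Ncoa2 read 5.60, 5.44 and 5.86 in SRC-2 null liver and 7.74, 7.92 and 8.53 in wild-type liver, a log2 fold change of -2.44 (SE 0.20, limma adjusted p = 0.000354). With each probe set on its own, 1435234_at of Ncoa2 was called too at -2.16, while 1446827_at at 0.067 (adjusted p = 0.902) and 1450458_at at -0.27 (adjusted p = 0.617) were not. The mean of the Ncoa2 probe sets gave -1.20 (adjusted p = 3.006e-05). Hepatocyte identity was checked with 13 hepatocyte markers, among them Hpd, Cps1 and Tat. None of them was called (0 of 13; 1 had an unadjusted p under 0.05 in limma), and their mean log2 level was 13.02 over the null arrays and 13.03 over the wild-type arrays. Macrophage markers moved with genotype: 12 of 14 fell, with a median log2 fold change of -0.97, and their mean log2 level was 6.96 to 6.98 in SRC-2 null and 7.98 to 8.05 in wild-type liver. Of 5 B and plasma cell markers 3 fell, with a median of -1.38, among them Ighm 11.7-fold and Jchain 5.69-fold, and of 5 T and NK cell markers 2 fell, Ccl5 and Nkg7. Krt19, 1 of 3 cholangiocyte markers, fell 1.40-fold. In the other direction Fabp4, 1 of 2 adipocyte markers tested, rose 3.31-fold, and Alas2, 1 of 2 erythroid markers tested, rose 1.55-fold. The 4 adipocyte markers with a probe set, some of them below the filter, averaged 5.31 in SRC-2 null and 4.25 in wild-type liver. No marker of neutrophils (0 of 4), endothelium (0 of 9), stellate cells (0 of 8) or pancreas (0 of 3) was called (limma). In bulk tissue fewer cells of a type and less RNA per cell cannot be told apart. Of 9 immediate early genes tested 5 also fell, among them Fos 7.14-fold, Jun 3.99-fold and Dusp1 2.45-fold. The limma adjusted p of these 3 was 3.15e-06, 7.68e-05 and 9.78e-05. Of 16 clock genes 1 fell, Bhlhe40. The part of these shifts in the results on glucose genes was not tested. Of 6 markers of kidney and gut, which also express G6pc, 5 lay below the filter, and Fabp2 averaged 9.06 in SRC-2 null and 8.65 in wild-type liver and was called higher (1.33-fold, limma adjusted p = 0.034). The part of such cells in the G6pc values was not tested.

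G6pc encodes the enzyme that frees glucose from glucose-6-phosphate, the shared last step of gluconeogenesis and glycogen breakdown. Its only probe set, 1417880_at, read 10.27, 10.27 and 10.20 in the 3 SRC-2 null livers and 11.02, 10.96 and 10.91 in the 3 wild-type livers. Every null array thus lay well below every wild-type array, with a gap many times the spread within a genotype. The means were 10.25 ± 0.042 in SRC-2 null and 10.96 ± 0.053 in wild-type liver (SD, n = 3 each), a log2 fold change of -0.71 (SE 0.079, 95% interval -0.89 to -0.53, limma adjusted p = 0.00154). Within replicate numbers 1, 2 and 3 the difference was -0.75, -0.68 and -0.71. By size the change was moderate, since 178 of the 372 genes called lower fell at least as far. The call held without each array in turn (adjusted p at most 0.0118) and in replicates 1 and 2 alone.

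Slc2a2 encodes GLUT2, the low-affinity glucose transporter of the hepatocyte surface that carries glucose both out and in. Its only probe set, 1449067_at, read 11.14, 11.12 and 11.09 in SRC-2 null liver, against 11.59, 11.64 and 11.56 in wild-type liver. The genotypes did not overlap, and the gap between them was several times the spread within either. The means were 11.12 ± 0.030 in SRC-2 null and 11.60 ± 0.040 in wild-type liver (SD, n = 3 each), a log2 fold change of -0.48 (SE 0.076, 95% interval -0.66 to -0.31, limma adjusted p = 0.01). Without wild-type replicate 2 the call was lost (limma adjusted p = 0.0638), while the log2 fold change stayed close, at -0.46. Leaving out an array also lowered the number of all genes called, from 556 to between 275 and 438. With every probe set tested on its own, both G6pc (adjusted p = 0.00449) and Slc2a2 (adjusted p = 0.0235) were called, and no other probe set of the 8 genes was: 2 of 17, where 2.41% of 19634 probe sets were.

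Slc37a4 encodes the transporter that feeds G6pc. Its only probe set, 1417042_at, read 11.18, 11.16 and 11.24 in SRC-2 null liver and 11.01, 11.01 and 10.95 in wild-type liver. All null arrays lay above all wild-type arrays, but by little. The log2 fold change was 0.20 (SE 0.076) with an unadjusted 95% interval of 0.026 to 0.38, and the gene did not pass (limma adjusted p = 0.223). With the replicate block the adjusted p was 0.154. The genotypes failed to overlap for 4 of the 8 genes, where 23.4% of all tested genes showed no overlap.

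The sequences before the annotated start of these 3 genes of glucose release are shown, for Slc37a4 before its first start. They are the 250 bases upstream of the start from RefSeq (GRCm38.p6), 5′ to 3′. Capitals mark every match, on either strand, to 11 motifs of factors known to act on gluconeogenic genes.
G6pc, chr11:101367466-101367715, plus strand: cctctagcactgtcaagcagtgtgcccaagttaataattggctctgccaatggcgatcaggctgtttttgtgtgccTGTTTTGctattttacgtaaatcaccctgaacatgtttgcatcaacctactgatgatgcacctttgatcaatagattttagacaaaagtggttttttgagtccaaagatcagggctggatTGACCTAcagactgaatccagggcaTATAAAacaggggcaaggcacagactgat
Slc2a2, chr3:28697653-28697902, plus strand: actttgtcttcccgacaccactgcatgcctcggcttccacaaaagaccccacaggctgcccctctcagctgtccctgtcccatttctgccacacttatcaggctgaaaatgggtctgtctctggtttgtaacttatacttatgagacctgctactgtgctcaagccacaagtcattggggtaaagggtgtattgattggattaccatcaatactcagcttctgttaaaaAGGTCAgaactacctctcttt
Slc37a4, chr9:44396696-44396945, plus strand: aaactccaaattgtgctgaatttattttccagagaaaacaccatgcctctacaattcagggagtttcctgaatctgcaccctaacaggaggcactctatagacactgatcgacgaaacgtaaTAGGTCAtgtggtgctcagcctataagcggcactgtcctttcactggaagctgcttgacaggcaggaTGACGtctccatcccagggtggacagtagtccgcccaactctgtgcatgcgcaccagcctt

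Upstream of G6pc the capitals mark, from left to right, the insulin response element TGTTTTG bound by FOXO factors at bases -174 to -168, the core of the ROR response element TAGGTCA on the minus strand at -54 to -48, and the TATA box TATAAA at -29 to -24. ROR proteins are nuclear receptors that bind such elements as monomers. The nuclear receptor half-site AGGTCA lies within the ROR core, so these are the same letters counted under both names. Slc2a2 held that half-site at -21 to -16 and no ROR core. Slc37a4 held the ROR core at -128 to -122, and the half-site TGACG of the cyclic AMP response element at -61 to -57. Before its other annotated starts no ROR core was found. The part of these motifs in the changes was not tested. A match is a run of letters and not a site shown to be bound.

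All 8 genes matched the RefSeq table, with 11 starts in all, 3 of them for Slc37a4 and 2 for Pcx. Among 32851 windows of the same length TAGGTCA occurred in 2.23%, AGGTCA in 14.0%, TGTTTTG in 5.56%, TATAAA in 12.4% and TGACG in 17.8%. Pck1 held TGACG at -90 to -86, Ppargc1a at -49 to -45 and Slc37a4 at 2 places before its second start, 1 of them the same site as before its first. Pck2 held TGTTTTG at -159 to -153, Pcx held the E-box CACGTG (6.02% of windows) at -248 to -243, the third start of Slc37a4 had a TATA box at -32 to -27, and Fbp1 held none of the motifs. The other motifs searched were not found before any of the 11 starts: the full cyclic AMP response element TGACGTCA (1.55% of windows), the FOXO variant TATTTTG (3.95%), the forkhead core TGTTTAC (3.17%), the glucocorticoid receptor half-site TGTTCT (16.1%) and the ROR element with its A/T-rich flank (0.32%).

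**Figure D2:**
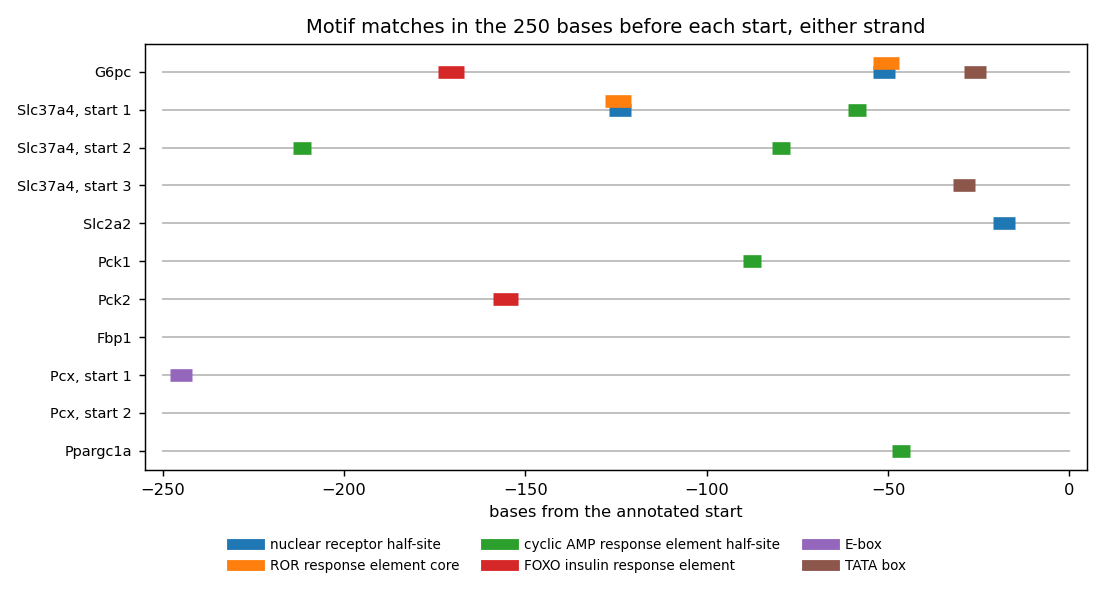
Motif matches on either strand in the 250 bases before each of the 11 annotated starts, plotted by distance in bases from the start. The ROR core appears before G6pc and the first start of Slc37a4, and the nuclear receptor half-site in those windows and before Slc2a2.

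The carboxykinases did not pass the test. Pck1, the cytosolic enzyme and a classic target of glucagon and insulin, read 12.50, 12.55 and 12.26 in SRC-2 null liver and 12.55, 12.59 and 12.50 in wild-type liver at its brightest probe set. The genotypes overlapped, and replicate 3 of SRC-2 null was the lowest array. The log2 fold change was -0.11 (SE 0.098, 95% interval -0.33 to 0.12, limma adjusted p = 0.646), so a fall as large as that of G6pc lies outside the interval. A further probe set of Pck1, 1439617_s_at, read 12.08, 12.03 and 11.25 in SRC-2 null and 12.15, 12.19 and 11.47 in wild-type liver. Replicate 3 was low there in both genotypes, and the log2 difference between genotypes was -0.15. The remaining probe set, 1455209_at, lay below the filter at 2.95 to 3.23 in SRC-2 null and 3.10 to 3.24 in wild-type liver.

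Pck2, the mitochondrial enzyme, was dim. It read 5.42, 5.50 and 5.48 in SRC-2 null liver and 5.55, 5.56 and 5.22 in wild-type liver. The null arrays lay inside the wild-type range, with a log2 fold change of 0.026 (95% interval -0.22 to 0.27, limma adjusted p = 0.942), and its direction turned to -0.084 without wild-type replicate 3. Its probe set 1452620_at lay below the filter.

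Fbp1, which removes a phosphate from fructose bisphosphate, read 13.08, 13.14 and 13.16 in SRC-2 null liver, against 12.96, 12.98 and 13.01 in wild-type liver. Null arrays all lay above wild-type arrays by a small margin, with a log2 fold change of 0.14 (95% interval -0.035 to 0.32, limma adjusted p = 0.409).

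Pcx, which makes oxaloacetate from pyruvate in mitochondria, read 10.50, 10.68 and 10.74 in SRC-2 null liver and 10.35, 10.45 and 10.63 in wild-type liver at its brightest probe set. The genotypes overlapped, and within each genotype replicate 1 was lowest. The log2 fold change was 0.16 (95% interval -0.081 to 0.41, limma adjusted p = 0.509). Of the 19 probe sets 4 are control probe sets on the Pcx transcript, named for the 5′ end, 2 middle positions and the 3′ end. Their log2 differences were 0.23, 0.26, 0.32 and 0.20 in that order, above 0 at each and called at none.

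These control probe sets showed a split by replicate number. At the 5′ end Pcx read 8.13, 8.34 and 7.23 in SRC-2 null replicates 1 to 3, and 7.92, 7.95 and 7.15 in wild-type replicates 1 to 3. At the 3′ end it read 10.36, 10.49 and 10.53 in SRC-2 null replicates 1 to 3, and 10.21, 10.24 and 10.34 in wild-type replicates 1 to 3. The log2 difference between 3′ and 5′ ends averaged 3.25 on the replicate 3 arrays and 2.24 on the others, while it averaged 2.56 over SRC-2 null and 2.59 over wild-type arrays. The gap thus differed between replicate numbers and hardly between genotypes. Replicate 3 was also low at 1439617_s_at of Pck1 and, below, at 1460336_at of Ppargc1a; the part of this split in those values was not tested. G6pc and Slc2a2 had replicate 3 values close to those of replicates 1 and 2 in both genotypes, and with replicate 3 as a batch term their adjusted p was 0.00104 and 0.0057.

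**Figure D3:**
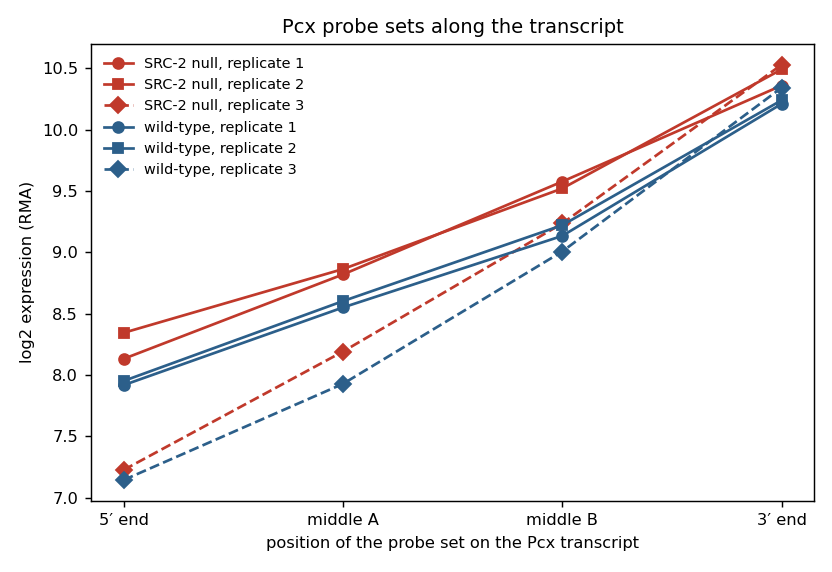
Log2 expression at the 4 control probe sets along the Pcx transcript, from the 5′ end to the 3′ end, 1 line for each array (SRC-2 null in red, wild-type in blue, replicate 3 dashed). Replicate 3 of both genotypes is lowest at the 5′ end, at 7.23 and 7.15, and level with the other arrays at the 3′ end. Probe sets bind with different strength, so the slope of a single line has no meaning by itself.

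Ppargc1a had 5 probe sets, all above the filter and none called. At the brightest, 1437751_at, it read 6.67, 6.55 and 6.35 in SRC-2 null liver and 6.35, 6.74 and 6.46 in wild-type liver, with full overlap. The log2 fold change was 0.0054 (95% interval -0.29 to 0.30, limma adjusted p = 0.99). The other probe sets lay below 0, at -0.12, -0.22, -0.36 and -0.37. At 1456395_at the null arrays read 6.09, 5.97 and 5.73 and the wild-type arrays 6.30, 6.44 and 6.16, without overlap (adjusted p = 0.232 over all probe sets). At 1460336_at replicate 3 was far below the others in both genotypes, at 4.81 in SRC-2 null and 5.44 in wild-type liver. The direction for Ppargc1a therefore depended on the probe set, and the mean of all 5 gave -0.21 (adjusted p = 0.406).

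**Figure D4:**
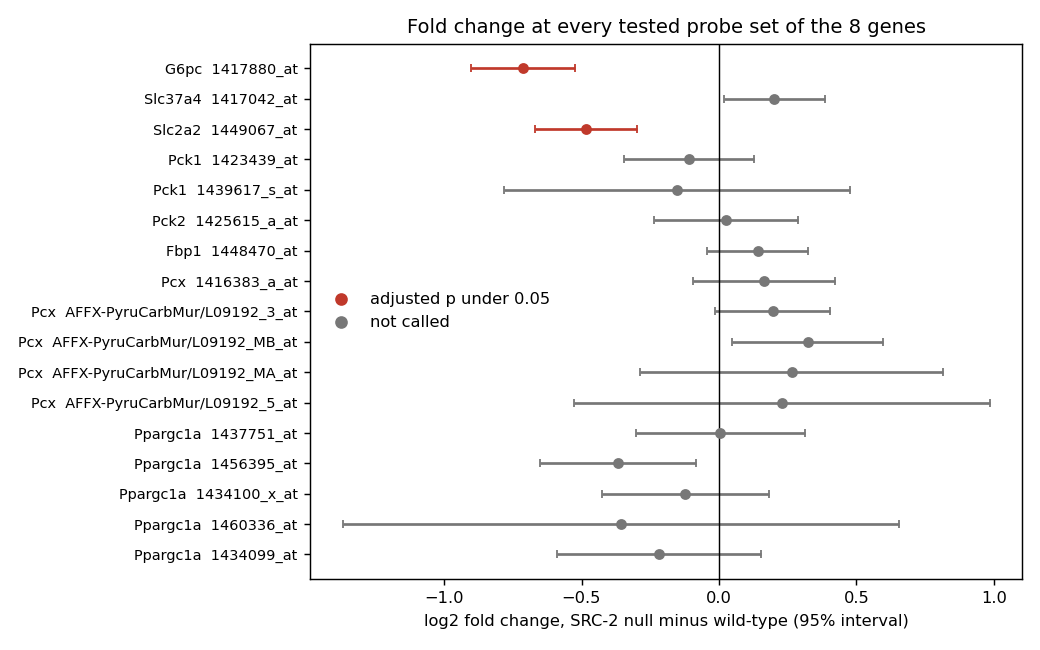
Log2 fold change (SRC-2 null minus wild-type) with its 95% interval at the 17 tested probe sets of the 8 genes, in red where called. The 2 called probe sets are those of G6pc at -0.71 and Slc2a2 at -0.48, and most other intervals include 0.

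The change in G6pc was set against that of each other gene by the difference of their log2 values within an array, compared between genotypes. The fold change of G6pc minus that of the other gene was -0.91 for Slc37a4, -0.88 for Pcx, -0.85 for Fbp1, -0.74 for Pck2, -0.72 for Ppargc1a, -0.60 for Pck1 and -0.23 for Slc2a2 on the log2 scale. In all 7 pairs the null arrays did not overlap the wild-type arrays. G6pc alone kept the genotypes apart, so this largely restates its own change. The same share for G6pc against all tested genes was not examined. Each pair gave p = 0.1 in a two-sided exact permutation test over the arrays, also after adjustment over the 7 pairs, which is the smallest p that 3 against 3 arrays allow and so cannot pass 0.05.

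Across the 6 arrays Pearson r with G6pc was 0.994 for Slc2a2 and 0.572 for Pck1. It was -0.958 for Slc37a4 and -0.95 for Fbp1, whose own changes were not called. Of all tested genes, the 5 closest to G6pc were Abcb11, the bile salt export pump (r = 0.999), Cyp2c70, a bile acid hydroxylase of mouse liver (r = 0.998), Igk, an immunoglobulin light chain (r = 0.997), Dio1, the deiodinase that activates thyroid hormone (r = 0.997), and Bst2, an antiviral membrane protein (r = 0.997). These are descriptions over 6 arrays that share 2 genotypes and replicate numbers, so r largely restates the difference between genotypes. Covariation within a genotype was not examined. In all, 252 genes (2.12%) had r over 0.95. Abcb11 fell to 9.11 ± 0.038 in SRC-2 null, against 10.02 ± 0.077 in wild-type liver (SD, n = 3 each, limma adjusted p = 0.000491). Dio1 fell to 8.47 ± 0.033 in SRC-2 null, against 9.36 ± 0.022 in wild-type liver (limma adjusted p = 0.000381).

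Around the 8 genes, 7 lists of related genes were examined. Of their 123 tested genes other than the 8, 22 were called, 9 higher and 13 lower, or 17.9% against 4.67% of all genes tested. The lists were written with earlier results of these data known, so this share is a description. It was 11 to 16 genes when an array was left out.

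Among 5 enzymes that gluconeogenesis shares with glycolysis, all lay above 0. Of these, Tpi1 (triosephosphate isomerase) and Pgam1 (phosphoglycerate mutase) rose 1.30-fold and 1.28-fold and 3 did not pass, where 1.55% of all tested genes were called higher. The median log2 fold change of the 5 was 0.27. Tpi1 read 11.24, 11.35 and 11.40 in SRC-2 null liver and 10.95, 10.98 and 10.92 in wild-type liver. Pgam1 read 9.68, 9.72 and 9.60 in SRC-2 null liver and 9.27, 9.35 and 9.31 in wild-type liver. Both sets of arrays stood apart, but both calls (limma adjusted p = 0.0397 and 0.0415) were lost whichever array was left out, and that of Pgam1 also with the arrays centred on their medians. The others were Gapdh at a log2 fold change of 0.22, Aldoa at 0.27 and Pgk1 at 0.20, the last named after its value was seen.

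None of 14 genes of the opposing glycolytic steps was called (limma; 3 had an unadjusted p under 0.05), and their median log2 fold change was -0.0079. Gckr had a log2 fold change of -0.27 (adjusted p = 0.154), Pklr, liver pyruvate kinase, -0.26 (adjusted p = 0.271), and Pfkfb3, a kinase that makes an activator of phosphofructokinase, -0.46 (adjusted p = 0.0816). Pklr passed with the mean of its probe sets. None of 10 related phosphatases, phosphate exchangers and glucose transporters was called either (0 with an unadjusted p under 0.05). G6pc3, the widely expressed relative of G6pc, belongs to this list, and G6pc2, the islet form, lay below the filter.

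Of 22 genes that bring substrate into the pathway 5 rose and 1 fell, where 1.55% and 3.13% of all tested genes did. Of the 22 genes 17 lay above 0. Their median log2 fold change was 0.15, against 0.0026 over all genes tested. Agxt, the peroxisomal enzyme that turns alanine and glyoxylate into pyruvate and glycine, read 11.32, 11.47 and 11.46 in SRC-2 null liver, against 10.60, 10.56 and 10.62 in wild-type liver. It rose 1.77-fold (limma adjusted p = 0.000919) and was called without each array in turn. Gpt, alanine aminotransferase, rose 1.38-fold (adjusted p = 0.0121) and lost its call without null replicate 2 or without wild-type replicate 1 or 2. Ldha, lactate dehydrogenase, rose 1.32-fold, and the mitochondrial carriers Slc25a11 (oxoglutarate) and Slc25a12 (aspartate and glutamate) rose 1.33-fold and 1.36-fold. The calls of Ldha and both carriers were lost whichever array was left out, and that of Slc25a11 with centred arrays too. For Slc25a12 the other 2 probe sets lay below the filter at -0.093 and -0.057, and the mean of its probe sets gave a log2 fold change of 0.099 (adjusted p = 0.613). Gpd2, the mitochondrial glycerol phosphate dehydrogenase that brings in glycerol, went the other way. It read 6.43, 6.68 and 6.76 in SRC-2 null liver and 7.56, 7.22 and 7.32 in wild-type liver, a 1.67-fold fall (adjusted p = 0.013) that was lost without null replicate 1. The mean of the Gpd2 probe sets gave a log2 fold change of -0.48.

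**Figure D5:**
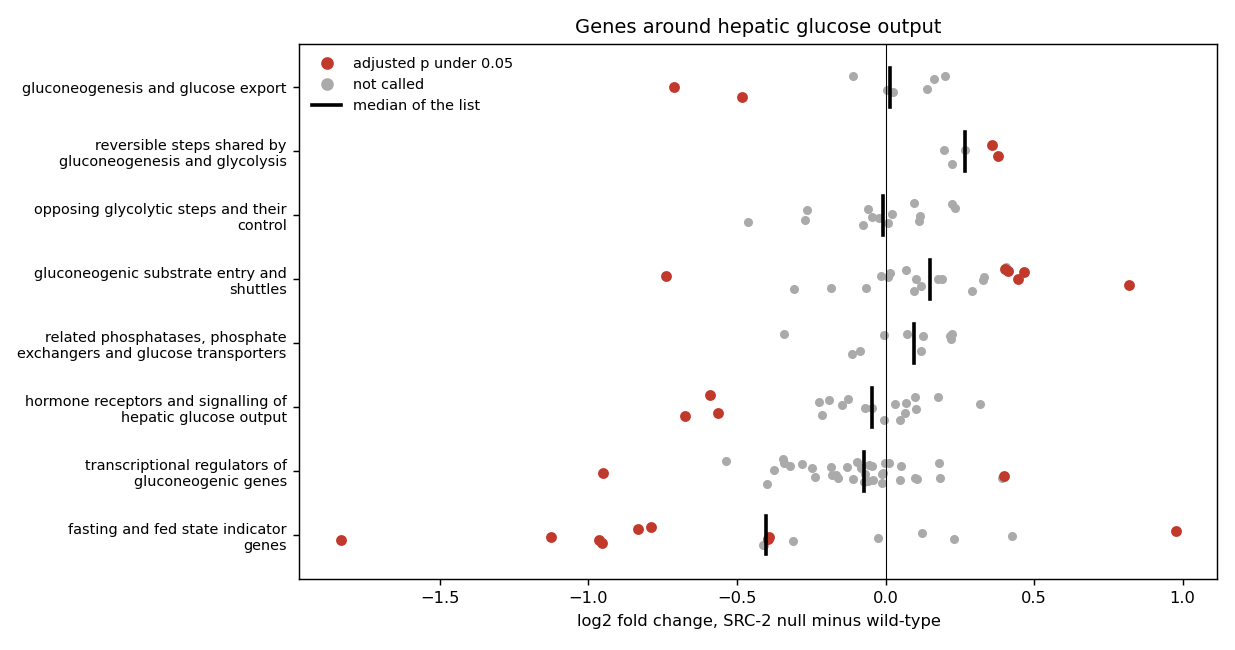
Log2 fold change (SRC-2 null minus wild-type) of every tested gene of the 8 and of the 7 related lists, called genes in red, with the median of each list as a bar. The shared enzymes and substrate genes have medians of 0.27 and 0.15, and the fasting and fed state genes a median of -0.40.

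Of 19 genes of hormone signalling 3 fell and none rose (0 higher at an adjusted p under 0.05), where 3.13% and 1.55% of all tested genes did. The median log2 fold change of the 19 was -0.046. Ppp1r3c and Ppp1r3b, which target a phosphatase to glycogen, fell 1.60-fold and 1.51-fold, and Irs1, an adaptor of the insulin receptor, fell 1.48-fold. The call of Ppp1r3c was lost with the mean or the most variable of its probe sets. Irs1 read 7.48, 7.49 and 7.77 in SRC-2 null liver and 8.13, 7.99 and 8.31 in wild-type liver (limma adjusted p = 0.0349). Its call was lost without any 1 array other than null replicate 3, and that of Ppp1r3b without null replicate 1 or 2. Igfbp1, an insulin-repressed gene of hepatocytes, missed the threshold at a log2 fold change of -0.22 (adjusted p = 0.197).

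Among 37 transcription factors and coregulators of gluconeogenic genes, 1 fell and 1 rose, where 3.13% and 1.55% of all tested genes did. The median log2 fold change of the 37 was -0.072. With the replicate block 4 fell, where 525 of all 11895 genes tested were called lower (832 in either direction). The 4 were Nr0b2, Nrip1 and, named after their values were seen, Foxo1 at -0.40 and Cebpb at -0.54. The limma adjusted p of Foxo1 was 0.024 with the block and 0.219 without, and that of Cebpb 0.0198 with the block and 0.153 without. Nr0b2, which encodes the repressor SHP, read 7.16, 7.02 and 7.26 in SRC-2 null liver and 8.02, 8.03 and 8.24 in wild-type liver. The groups were far apart, a 1.93-fold fall (limma adjusted p = 0.00127) that was called without each array in turn. Esrra, an orphan receptor that works with PGC-1 alpha, rose 1.32-fold (adjusted p = 0.0427), a call lost whichever array was left out and with centred or renormalized arrays. Klf15, a fasting-induced activator of amino acid use, had a log2 fold change of -0.32 (adjusted p = 0.0568), and Nrip1, a corepressor, -0.35 (adjusted p = 0.0922). Nrip1 was called with the replicate block (adjusted p = 0.0456), with replicate 3 as a batch term (0.0276) and after repeated quantile normalization (0.048), but its probe sets averaged -0.14 (adjusted p = 0.546). Klf15 was called with the batch term (adjusted p = 0.0301), the mean rule for probe sets (0.0318), the upper-quartile filter (0.0247) and the trended robust variance (0.00774), and was not called with the block.

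Feeding state moves G6pc and Slc2a2 in liver, so 16 genes that mark fasting or feeding were read beside them. Of these 8 fell and 1 rose, where 3.13% and 1.55% of all tested genes did. The median log2 fold change of the 16 was -0.40. Pdk4, a fasting-induced kinase that restrains pyruvate oxidation, read 4.99, 4.75 and 4.88 in SRC-2 null liver and 5.60, 5.81 and 6.08 in wild-type liver, a 1.94-fold fall (limma adjusted p = 0.00524). Lpin1, a phosphatidate phosphatase induced by fasting, fell 2.18-fold, and its relative Lpin2 fell 1.32-fold, a call lost whichever array was left out, with a log2 fold change of -0.075 at its most variable probe set. Elovl6, a fatty acid elongase raised by feeding, fell 1.73-fold, as did the lipogenic genes Thrsp, Fasn and Srebf1 (3.56-fold, 1.78-fold and 1.95-fold); the mean of the Thrsp probe sets gave a log2 fold change of -1.22, against -1.83 at the brightest. Asns, asparagine synthetase, rose 1.97-fold (adjusted p = 0.0113) and lost its call without null replicate 1. Of the 16 genes 4 lay above 0. Beside Asns these were Cpt1a (0.43), Fgf21 (0.23) and Cyp4a14 (0.12), not called and named after their values were seen. Angptl4, at -0.39, was also called lower and was likewise named after its value was seen. The genes that fell included some raised by fasting and some raised by feeding. The part of feeding state in the change of G6pc and Slc2a2 was not tested.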

How the data were processed

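RNA from 3 SRC-2 null and 3 wild-type livers was measured on Affymetrix arrays. The log2 values were deposited by the authors, 1 column per array, and the submitters' processing notes name RMA, a method that corrects background, normalizes by quantiles and summarizes probes on a log2 scale; its version is not given in the sources used. Array medians lay between 4.17 and 4.24. For each of 18194 genes the probe set of 1 symbol with the highest mean was kept, and 11895 genes with a mean of at least 4.21, the median of all probe sets, were tested with limma 3.58.1 in R 4.3.3 (two-sided, genotype only, Benjamini-Hochberg). Gene names come from the platform annotation, which can be old. On simulated data for this comparison (11895 genes, 50 changed at each size) limma recovered 6% of 1.25-fold, 52% of 1.5-fold, 82% of 2-fold and 100% of 4-fold changes. It also called 5 genes that had not been changed. The simulated noise was normal and independent between genes and arrays, without the split of replicate 3, so recovery in the real data can differ. The replicate numbers come from the sample titles. Deviations from the group means correlated at 0.18, 0.203 and 0.517 between arrays of equal number, all over 0.1, which met the rule used for pairing. Replicates 1 and 2 correlated about as well across numbers (0.166 and 0.206), and only replicate 3 stood apart (r from -0.344 to -0.266 with replicates 1 and 2 of the opposite genotype). The values therefore do not show that 1 pairs with 1 or 2 with 2. No label says that replicates are separate animals, so p-values cover only the variation among these arrays, possibly technical. The number of arrays limits the precision.

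The 8 genes and the lists were chosen with earlier results of these data known. The genes named are the 8, Ncoa2, the 4 members of each related list with the smallest p plus others called, up to 8 (for markers of cell types and handling, the 3 with the smallest p), and the 5 genes most like G6pc. List members without a probe set of 1 symbol were not analysed here. Alternatives changed the probe set rule, filter, scaling, variance model, block, arrays and test. Plots used matplotlib 3.10.9 (Python 3.11.15).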

Additional observations from a re-analysis of the deposited data

How the results depend on the processing

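Across the 18 alternatives run for it, G6pc kept its direction (log2 fold change -0.74 to -0.69) and its call in all but the exact permutation test, where it stayed at -0.71 and Slc2a2 at -0.48. That test called 0 genes, 0 of the 8 and 0 related genes, since 3 against 3 arrays cannot give a p under 0.1. Slc2a2 lost its call there and without wild-type replicate 2 (range without an array -0.50 to -0.46). Slc37a4, Pck1, Fbp1 and Pcx kept their direction and stayed without a call under all alternatives run. Pck2 turned to -0.018 with the mean of all probe sets, to -0.093 in replicates 1 and 2 only, and ranged from -0.084 to 0.083 without an array. Ppargc1a turned to -0.21 with the mean of all probe sets and to -0.36 with the most variable probe set, and ranged from -0.078 to 0.12 without an array. The causes were not tested. Members called numbered 1 to 2 without an array.

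Over all genes 275 to 438 were called without an array, 65 to 174 higher and 210 to 315 lower. The counts, given as all, higher and lower, were 318, 80 and 238 with the most variable probe set, 983, 376 and 607 with replicate 3 as a batch term, and 329, 95 and 234 in replicates 1 and 2 only. Each probe set on its own gave 121 higher. With the replicate block 832 genes were called, 307 of them higher, and the calls of the 8 genes did not change (G6pc adjusted p = 0.00348, Slc2a2 adjusted p = 0.0132). Related genes called numbered 11 to 16 without an array, 12 with the most variable probe set, 35 with the batch term, 11 in replicates 1 and 2 only and 14 with each probe set on its own. On the given strand alone 2 motifs were found before G6pc in place of 4. Folds at dim probe sets, such as those of Pck2 and Pdk4, can be compressed by background.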

Other observations

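Other transcripts with control probe sets at both ends were read on the same arrays as Pcx. The log2 difference between 3′ and 5′ ends of Gapdh averaged 0.49 on the replicate 3 arrays and 0.14 on the others, and that of Actb averaged 1.40 on the replicate 3 arrays and 1.13 on the others. By genotype these differences averaged 0.22 in SRC-2 null and 0.29 in wild-type liver for Gapdh, and 1.17 in SRC-2 null and 1.27 in wild-type liver for Actb. Tfrc was dim at its 5′ end (2.58 to 3.43 in SRC-2 null and 2.63 to 2.83 in wild-type liver) and showed 1.67 on the replicate 3 arrays and 1.58 on the others. The probe sets were read after the values of Pcx had been seen.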
